A study of Mus musculus with 6 samples.

Results

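The genes described here are the forkhead (Fox) and Sry-box (Sox) transcription factors of the fetal mouse lung other than 7 well-studied relatives (Foxa1, Foxa2, Foxf1, Foxj1, Sox2, Sox9 and Sox10). They were taken by symbol, as Fox with 1 further letter and a number or Sox with a number, from probe sets annotated to a single gene. This gave 49 genes of 18193 measured, 33 Fox and 16 Sox, each read at whichever of its probe sets was brightest on average. The series holds whole microdissected lungs of embryos at E16.5 (embryonic days after conception) on a mixed strain background, 3 of genotype Hopx -/- (Hopx-null) and 3 of genotype Hopx +/+ (wild-type), called biological replicates in the labels. The labels do not describe the null allele, and they give neither the sex of the embryos nor whether a sample pooled several of them. RNA was read on single-channel Affymetrix arrays, and all values are log2 expression values. The number of arrays limits the precision.

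Fox proteins bind DNA through a forkhead (winged-helix) domain and Sox proteins through an HMG box, which bends DNA. Members of both families specify cell types in the embryo: Foxp proteins repress genes of other cell types in lung epithelium, Foxf proteins act in the mesenchyme around it, Foxo proteins are switched off by insulin and Akt signalling, and Sox7, Sox17 and Sox18 act in endothelium. The protein Hopx has a homeodomain that does not bind DNA, and in lung it is a marker of alveolar type I cells. The design asks which transcripts differ between lungs with and without this gene.

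The targeted gene checked the labels: Hopx read 4.59 to 4.96 in the 3 null and 10.41 to 10.96 in the 3 wild-type lungs at its first probe set, and 10.35 to 10.64 against 12.26 to 12.50 at the other. It fell by 5.94 (SE 0.17, adjusted p = 0.000375) and by 1.91 (SE 0.11, adjusted p = 0.0228) on the log2 scale in limma with Benjamini-Hochberg adjustment. No other probe set passed at an adjusted p under 0.05, so 2 of 45037 (0.00444%) did. Levels of 13 lung epithelium markers averaged between 12.04 and 12.11 in all 6 lungs, and all 13 lay above the median level of the array. Actin and Gapdh control probe sets, which compare the 3' with the 5' end of a transcript, differed most in Hopx-null replicate 3 (1.51 and 1.72, against 1.15 to 1.25 and 1.42 to 1.597 elsewhere), a sign of RNA or labelling quality. Y-linked transcripts were present in wild-type replicates 2 and 3 only: Eif2s3y read 11.72 and 11.56 there and 2.89 to 3.13 in the other 4 lungs. Wild-type replicate 1 and the 3 Hopx-null lungs therefore shared the absence of Y-linked signal. The sex-linked Xist showed the reverse. Its level was 12.48 to 12.68 across the Hopx-null lungs and 12.22 for wild-type replicate 1. Where Y-linked transcripts were present it fell to 6.43 (replicate 2) and 5.84 (replicate 3). By these transcripts every Hopx-null lung had a female pattern, whereas only 1 wild-type lung did. Sex was thus partly confounded with genotype, and its part in the differences was not tested.

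Of the 49 Fox and Sox genes, 0 passed limma's test (Benjamini-Hochberg over all 45037 probe sets), and the smallest adjusted p among them was 0.878. The unadjusted p was under 0.05 for 2, Foxf2 and Foxn2, which is 4.08% of the members against 4.54% of all genes. The 3 Hopx-null values lay wholly above the 3 wild-type values for 2 members, Foxf2 and Foxp2 (4.08%, against 6.21% of all genes). They lay wholly below for 2 members, Foxn2 and Foxm1 (4.08%, against 4.31% of all genes). These shares were near the background and give no result about the families as such.

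The direction of the members was mixed. Differences were positive in Hopx-null lungs for 19 and negative for 30, with a median log2 difference of -0.03 for the 33 Fox genes, -0.03 for the 16 Sox genes and 0.01 for all genes. The Sox median turned to 0.0086 over genes above the median level, 0.014 with array weights and 0.021 without Hopx-null replicate 3. The size was below 0.25 for 42 of the 49, and above 0.5 for 3, namely Foxf2, Foxc2 and Sox21. The 95% interval lay inside 1 log2 unit (2-fold) in both directions for 46 members, and inside 0.5 for 37. Those whose interval reached beyond 2-fold were Foxa3, Foxc2 and Sox21, so for these a 2-fold difference was not bounded by 3 lungs of each genotype.

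**Figure D1:**
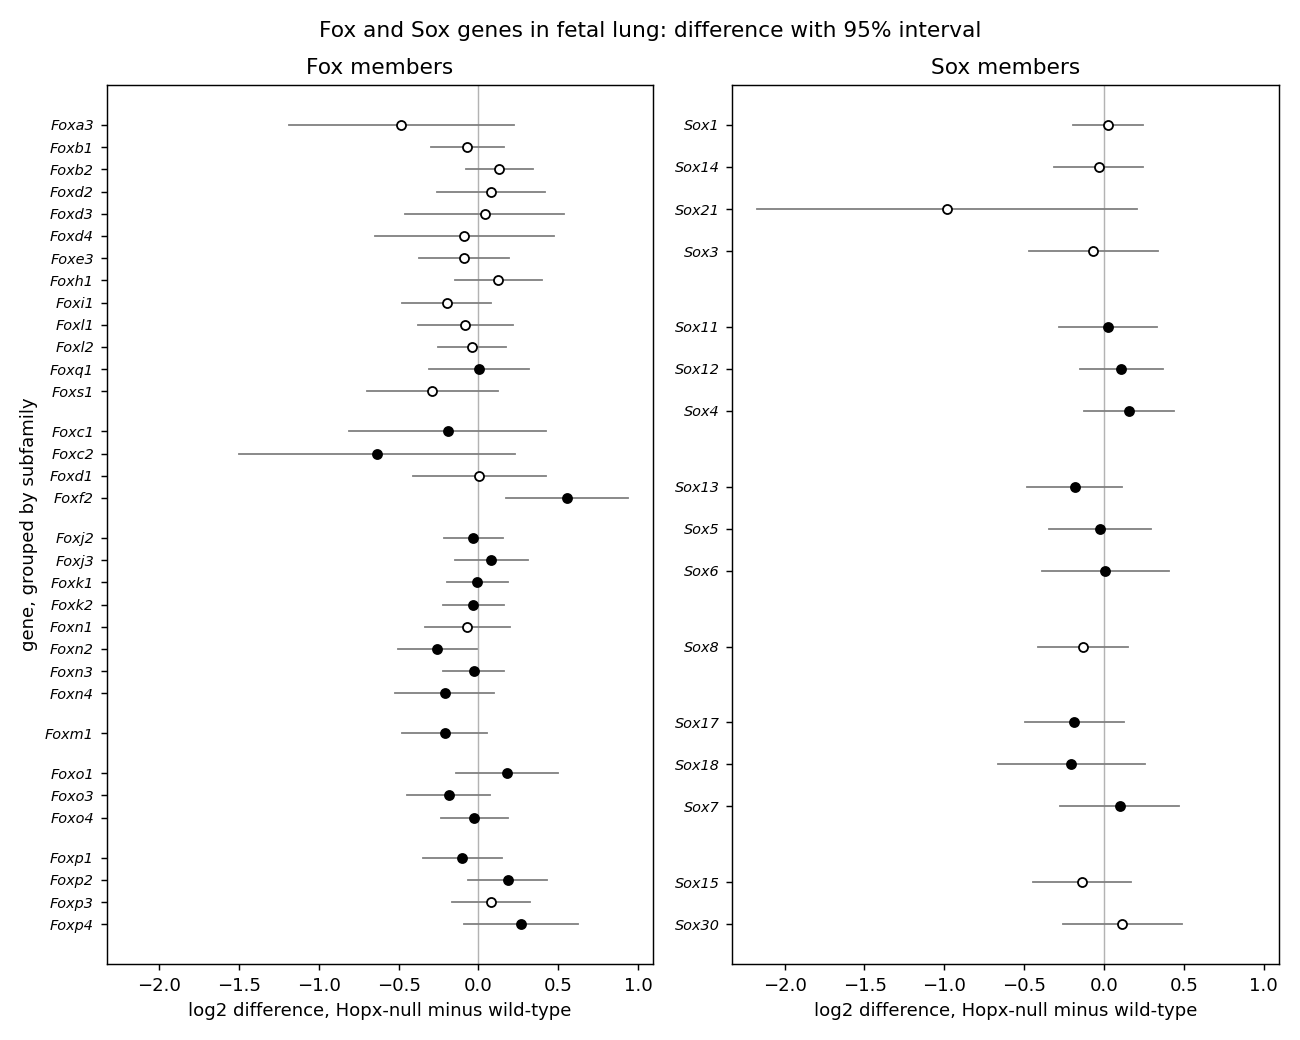
Log2 difference (Hopx-null minus wild-type, x axis) of each of the 33 Fox and 16 Sox genes (y axis, grouped by subfamily), with its 95% limma interval as a bar. Filled points are genes brighter than the array median and open points are dimmer. Most points sit within 0.25 of 0, and Sox21, Foxc2 and Foxa3 have the widest intervals.

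Signal separated the families into a bright and a dim part. The mean lay above the upper quartile of all probe sets (9.02) for 18 members and between the median (6.69) and that quartile for 9. It lay between the lower quartile (4.29) and the median for 12 and below the lower quartile, where signal is close to background, for 10. The bright part held the widely expressed Foxj2, Foxj3, Foxk1, Foxk2, Foxn2 and Foxn3, 3 Foxo genes, Foxp1, Foxp2 and Foxp4, Sox4 and Sox11, Sox13, and the endothelial Sox7, Sox17 and Sox18. The lowest part held Foxb1, Foxd1, Foxd3, Foxd4, Foxi1, Foxl2, Sox1, Sox8, Sox14 and Sox30. Foxn1, the factor of thymic epithelium, and Foxp3, the factor of regulatory T cells, read between 4.52 and 4.85 in every lung. For the dim genes a small difference in log2 values may understate a difference in transcript, which was not tested.

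Among mesenchymal Fox genes, Foxf2, a close relative of Foxf1 that acts in the mesenchyme of gut and lung and in pericytes, had the largest positive difference of all 49. The 3 Hopx-null lungs, in the order of their replicate numbers, read 9.01, 9.14 and 8.82, and the wild-type lungs 8.60, 8.58 and 8.11. Values below follow the same order. Every Hopx-null lung was above every wild-type lung, and wild-type replicate 3 was the lowest. The means were 8.99 ± 0.16 (SD, n = 3) and 8.43 ± 0.28 (SD, n = 3), a difference of 0.56 (SE 0.16, 95% interval 0.17 to 0.94, limma with Benjamini-Hochberg, adjusted p = 0.878), or 1.47-fold. Without wild-type replicate 3 the difference was 0.40. A dim second probe set of Foxf2, with a mean of 4.25, differed by -0.09 (SE 0.10). The relative Foxf1 read 12.14 to 12.38 in null and wild-type lungs alike and differed by -0.03 (SE 0.10). In whole lung, fewer cells of a type and less RNA per cell cannot be told apart, and this holds for every gene here.

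Foxc1 and Foxc2 act in mesoderm, in vessels and in the skeleton. Foxc2 read 7.03, 7.09 and 7.34 in the null lungs and 6.94, 7.97 and 8.46 in the wild-type lungs. The wild-type lungs spread widely: replicate 1 was the lowest of all 6 and replicates 2 and 3 the highest. The difference of -0.64 (SE 0.36, 95% interval -1.50 to 0.23, limma with Benjamini-Hochberg, adjusted p = 0.878) was -1.06 when wild-type replicate 1 was left out and -0.30 when replicate 3 was. Foxc1 spread most among Hopx-null lungs (7.49, 7.15 and 8.13, against 7.50, 7.86 and 7.98 in wild-type) and differed by -0.19 (SE 0.26). A dimmer second Foxc1 probe set gave 0.10 (SE 0.23). Foxd1, a factor of stromal progenitors and pericytes in other organs, read near background at 2.73 to 3.28 and differed by 0.01 (SE 0.17). Foxs1, expressed around vessels, read 6.57, 6.04 and 5.92 in null and 6.45 to 6.48 in wild-type lungs, with overlap. Foxq1 and Foxl1, of gut and other epithelia or mesenchyme, differed by 0.0028 and -0.08, and both turned sign when single lungs were left out. A second Foxq1 probe set, also above the median level, gave 0.23 (SE 0.15) with overlap.

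The same 2 wild-type lungs stood apart at other members, which were picked after their values had been seen. Sox21, a group B factor expressed with Sox2 in proximal airway epithelium and in neural tissue, had the largest difference of the 49. It read 5.08, 5.003 and 5.32 in the null lungs and 4.85, 6.76 and 6.74 in the wild-type lungs. Wild-type replicates 2 and 3 lay 1.42 or more above the other 4 lungs, while wild-type replicate 1 lay below every Hopx-null lung. The difference was -0.98 (SE 0.50, 95% interval -2.17 to 0.21, limma with Benjamini-Hochberg, adjusted p = 0.878). Without wild-type replicate 1 it was -1.62 and Sox21 was the 1 member that passed (limma with Benjamini-Hochberg, adjusted p = 0.0389), in a fit in which genotype and Y-linked signal cannot be told apart. A second, dimmer Sox21 probe set gave -0.53 (SE 0.19), with 4.39, 4.06 and 4.65 in null and 4.61, 4.94 and 5.14 in wild-type lungs.

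Foxa3, an endodermal factor best known from liver and gut, read 5.46, 5.36 and 5.56 in null and 5.25, 6.48 and 6.10 in the wild-type lungs. Here too wild-type replicate 1 was lowest and replicates 2 and 3 highest, and the difference was -0.48 (SE 0.30, 95% interval -1.19 to 0.22). It was -0.83 without wild-type replicate 1 and -0.21 without replicate 2. These lungs were also the highest 2 for Foxn4, Foxp1, Foxl1, Foxm1 and Sox7, by smaller gaps of 0.18, 0.084, 0.038, 0.027 and 0.0050, and the lowest 2 for Foxf2 and Foxb2. How many of all genes have these 2 lungs as highest or lowest was not counted, so no excess among the members can be read from this. Of the relatives left out of the group, Sox2, which specifies proximal airway, read 9.25 and 9.10 in these lungs and 7.95 to 8.57 in the other 4. Sox10, of neural crest and Schwann cells, read 7.37 and 7.20 there and 5.03 to 6.34 elsewhere. Foxa2, of lung and gut endoderm, differed by -0.28 (SE 0.16) with overlap.

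Means over some marker lists of other cell types were also highest in wild-type replicates 2 and 3, though not every marker was. Fabp7 and Stmn2 of the neural list and Krt4 and Krt13 of the squamous and foregut list were lowest in wild-type replicate 3. Means over 15 cartilage markers were 7.31 and 7.51 in wild-type replicates 2 and 3, 5.32 in wild-type replicate 1 and 5.38 to 6.18 in the Hopx-null lungs. Of these markers 14 were lower in Hopx-null lungs (median -0.96), 0 of 15 passed limma (Benjamini-Hochberg), and 1, Matn3, read below the lower quartile. Leaving out wild-type replicate 1 gave a median of -1.81, and leaving out replicate 3 gave -0.54. Means over 12 neural and Schwann cell markers, Sox10 among them, were 6.68 and 6.87 in wild-type replicates 2 and 3 against 6.01 in replicate 1 and 6.02 to 6.57 in Hopx-null lungs. Means over 9 squamous and foregut markers were 5.56 and 5.42 there against 5.26 in wild-type replicate 1 and 5.27 to 5.35 in Hopx-null lungs, with Sprr3 and the thyroid factor Pax8 below the lower quartile. Of the 9, 7 were lower in Hopx-null lungs. Lung epithelium, blood endothelial, lymphatic, and smooth muscle and pericyte lists did not have these 2 lungs highest. The multiciliated list did (8.409 and 8.279, against at most 8.24 elsewhere), as did the thymus and T cell list (5.125 and 5.108, against at most 5.079). The part of such cell types in the values of Sox21, Foxc2 and Foxa3 was not tested. The Y-linked signal lies in the same 2 lungs and cannot be told apart from the marker levels.

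**Figure D2:**
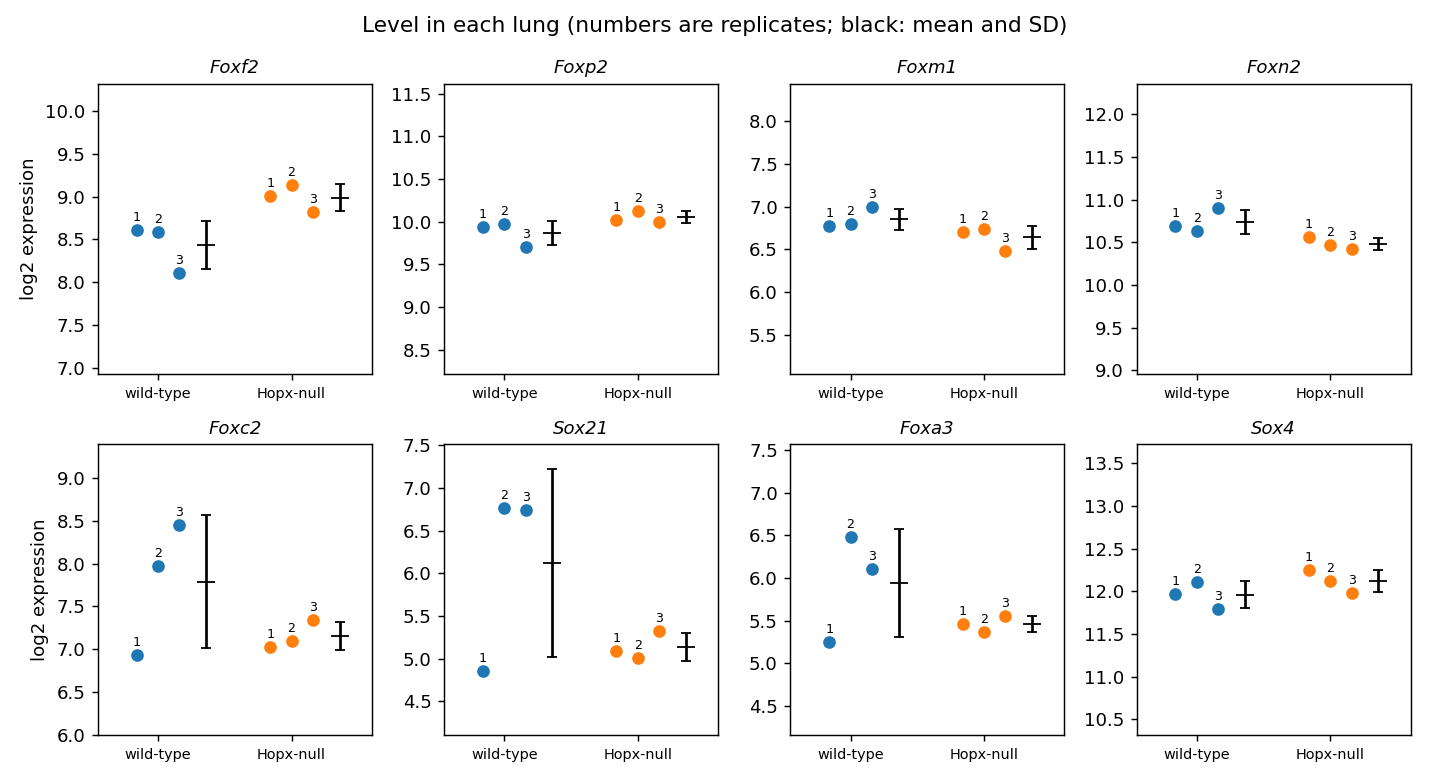
Log2 expression (y axis) of 8 genes in each lung (x axis, genotype; the number above a point is the replicate), with the mean and SD (n = 3) in black. Foxf2 and Foxp2 do not overlap upward and Foxm1 and Foxn2 downward, whereas Foxc2, Sox21 and Foxa3 are high in wild-type replicates 2 and 3 only.

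**Figure D3:**
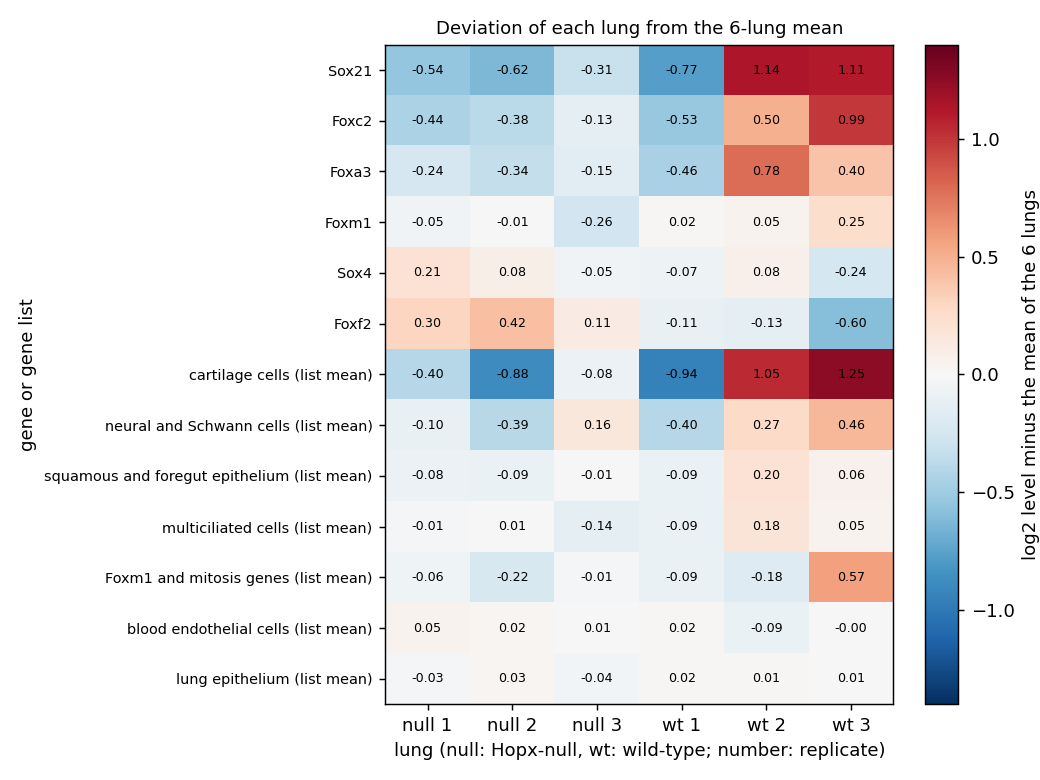
Log2 level of 6 genes and the mean of 7 gene lists (rows) in each of the 6 lungs (columns), as the deviation from the mean of the 6 lungs (colour and number). Wild-type replicates 2 and 3 deviate upward by 1.14 and 1.11 at Sox21 and by 1.05 and 1.25 for cartilage markers, while the lung epithelium list stays within 0.04 of its mean.

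Promoter sequence is shown for the gene with the largest positive difference and for 2 of those that were high in the same wild-type lungs. The windows run from 250 bases before to 50 after the annotated start, from RefSeq (build GRCm38.p6), and each is given 5' to 3' on the strand of its gene. Foxf2 lies at chr13:31625566-31625865 (+ strand), Sox21 at chr14:118236981-118237280 (- strand) and Foxa3 at chr7:19023490-19023789 (- strand). Capitals mark a match to any of the motifs searched on both strands: forkhead TGTTTAC and TGTTTGC, Sox AACAAT and AACAAAG, and the TATA box TATAAA.
Foxf2: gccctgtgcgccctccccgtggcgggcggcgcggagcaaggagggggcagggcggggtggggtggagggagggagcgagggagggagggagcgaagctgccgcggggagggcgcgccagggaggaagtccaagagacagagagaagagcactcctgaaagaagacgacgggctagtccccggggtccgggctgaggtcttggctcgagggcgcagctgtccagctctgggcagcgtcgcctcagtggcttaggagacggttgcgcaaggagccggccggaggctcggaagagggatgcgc
Sox21: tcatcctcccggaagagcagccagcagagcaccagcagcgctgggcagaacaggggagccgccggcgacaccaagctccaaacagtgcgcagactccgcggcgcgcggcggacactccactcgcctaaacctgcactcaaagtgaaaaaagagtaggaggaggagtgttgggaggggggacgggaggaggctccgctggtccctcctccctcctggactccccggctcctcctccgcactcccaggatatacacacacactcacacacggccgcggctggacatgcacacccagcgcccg
Foxa3: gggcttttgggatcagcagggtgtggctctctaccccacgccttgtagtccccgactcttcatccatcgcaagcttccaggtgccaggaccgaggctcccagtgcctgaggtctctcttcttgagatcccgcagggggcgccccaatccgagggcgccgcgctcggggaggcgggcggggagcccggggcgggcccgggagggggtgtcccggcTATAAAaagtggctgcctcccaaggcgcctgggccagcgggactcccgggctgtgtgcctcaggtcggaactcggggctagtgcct
The Foxa3 window held 1 match, a TATA box, and the other windows held 0. Windows were listed for 34 of the 49 members, with the first listed taken for each gene. They held a median of 22 CpG dinucleotides against 7 in the windows of all 27025 listed genes, which include non-coding genes. Their median GC content was 65.7%, against 52.7%, which bears on how often strings rich in A and T occur. TATAAA occurred in 5.88% of member windows and 14.2% of all windows, TGTTTAC in 2.94% and 3.55%, TGTTTGC in 8.82% and 5.04%, AACAAAG in 8.82% and 5.79%, and AACAAT in 0 of 34 and 10.9%. Further listed windows of Foxp1 and Sox6, which were not used, did hold AACAAT. A match is a string of letters and no measured binding site.

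The Foxp genes encode repressors, of which Foxp1, Foxp2 and Foxp4 are expressed in lung epithelium. Foxp2 read 10.02, 10.13 and 9.999 in the null lungs and 9.93, 9.97 and 9.70 in the wild-type lungs. Every Hopx-null lung was above every wild-type lung, by as little as 0.03 at the closest, and the difference was 0.18 (SE 0.10, 95% interval -0.06 to 0.43). Foxp4 differed by 0.27 (SE 0.15), with 10.16, 10.29 and 10.56 against 9.92, 10.30 and 9.99 and overlap through wild-type replicate 2. Without Hopx-null replicate 3 it differed by 0.16. Foxp1 read 12.45, 12.38 and 12.41 in null and 12.35, 12.53 and 12.66 in the wild-type lungs, which overlap, and differed by -0.10 (SE 0.10). Its difference was -0.028 when wild-type replicate 3 was left out and -0.18 when replicate 1 was. None of these passed limma (Benjamini-Hochberg, adjusted p = 0.878 to 0.896).

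Several of these genes were read by more than 1 probe set: the 49 genes had 121 probe sets, 30 genes having more than 1, and Foxp1 and Sox4 8 each. Probe sets of a gene share the same arrays and RNA and are not replicates. All 8 Foxp1 probe sets were lower in Hopx-null lungs, from -0.09 to -0.78. The largest of these read 8.47, 8.17 and 7.44 in null and 8.78, 8.60 and 9.03 in wild-type lungs and did not overlap. Its lowest lung, Hopx-null replicate 3, was the one with the largest 3' bias, and a link between that bias and the low value was not tested. Of the Foxp2 probe sets 5 of 6 were higher, from 0.11 to 0.31, and 1 differed by -0.14. All 3 of Foxp4 were higher, with 0.38 (SE 0.11, limma with Benjamini-Hochberg, adjusted p = 0.878) at the second brightest, where 9.64, 9.72 and 9.87 stood against 9.32, 9.50 and 9.27 without overlap.

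**Figure D4:**
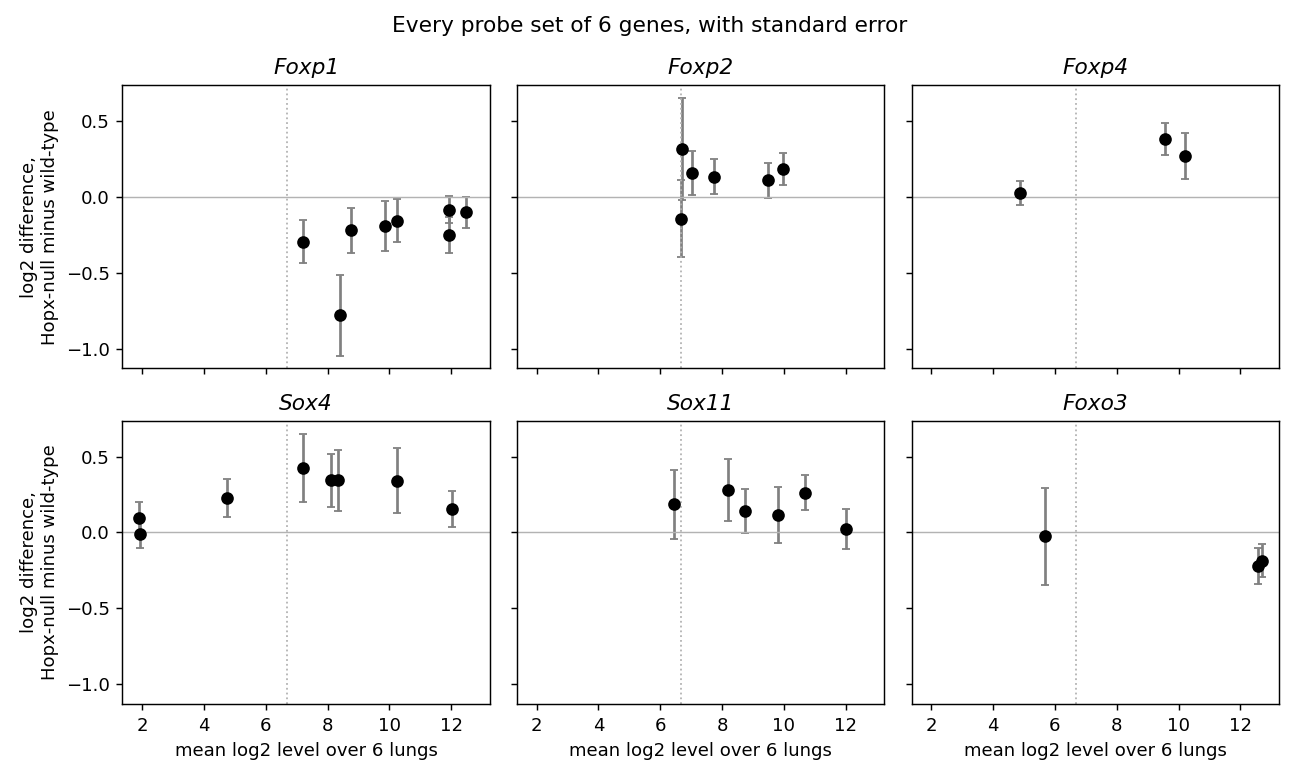
Log2 difference (Hopx-null minus wild-type, y axis, bars are the standard error) of every probe set of 6 genes against its mean log2 level over the 6 lungs (x axis). The dotted line is the median level of all probe sets. All 8 points of Foxp1 lie below 0, and all 6 of Sox11 and all 3 of Foxp4 above it.

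Known partners of Foxp proteins and genes of lung epithelium they act on were divided, 6 of 14 measured higher and 8 lower, with 0 of 14 past limma (Benjamini-Hochberg) and a median of -0.01, which was 0.02 without Hopx-null replicate 3. The largest differences were -0.35 (SE 0.32) for the deacetylase Hdac2, -0.23 (SE 0.11) for the lung lineage factor Nkx2-1, and 0.21 (SE 0.25) for the type I cell protein Pdpn. Genotypes did not overlap for Nkx2-1, lower (1 of 14, 7.14%, against 4.31% of all genes). They did not overlap either for Hdac1, higher by 0.10 (1 of 14, 7.14%, against 6.21%). The difference at Hdac2 came with a low value in Hopx-null replicate 3 (9.50, against 10.56 to 10.78 in the other 5 lungs).

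Foxm1, which drives genes of the G2 phase and mitosis, read 6.70, 6.74 and 6.48 in null and 6.77, 6.80 and 6.99 in the wild-type lungs. All Hopx-null lungs were below all wild-type lungs, by 0.03 at the closest. The difference was -0.21 (SE 0.11, 95% interval -0.48 to 0.05, limma with Benjamini-Hochberg, adjusted p = 0.878) and -0.13 without Hopx-null replicate 3. Its probe set has the suffix x_at, which marks probes that may bind other transcripts, and the other 3 Foxm1 probe sets gave -0.14, 0.06 and 0.09. Of 19 Foxm1 target and mitosis genes, 18 were lower and 1 higher, with a median of -0.17 and 0 past limma (Benjamini-Hochberg). Ccnb2 at -0.51, Plk1 at -0.42 and Cdc20 at -0.40 differed most. Wild-type replicate 3 had the highest list mean, 8.11 against 7.31 to 7.52 in the other 5 lungs. Without it the median was -0.02, with 9 genes higher and 10 lower.

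Foxo factors raise genes of growth arrest, stress defence and fasting when insulin signalling is low. Foxo1 read 11.24, 11.20 and 11.56 in null and 11.18, 10.99 and 11.30 in the wild-type lungs, with overlap and a difference of 0.18 (SE 0.13). Without Hopx-null replicate 3 it was 0.064, and 0.027 over the mean of its 4 probe sets. Foxo3 differed the other way, by -0.19 (SE 0.11), and all 3 of its probe sets were lower, by -0.02 to -0.22. Foxo4 differed by -0.03 (SE 0.09). Of 21 Foxo targets and regulators 16 were lower and 5 higher, with a median of -0.09 and 0 past limma (Benjamini-Hochberg). The cytokine receptor gene Il7r at -0.62 (SE 0.16), the muscle ubiquitin ligase Fbxo32 at -0.43 (SE 0.21) and the repressor Bcl6 at -0.40 (SE 0.21) differed most. Genotypes did not overlap for 4 of the 21 (19%, against 4.31% of all genes), all lower: Il7r, Fbxo32, Txnip and the insulin receptor gene Insr. None was wholly higher (0 of 21, against 6.21% of all genes). Txnip and Insr differed by only -0.09 each (SE 0.08 and 0.09), and Il7r lay below the median level. The list was chosen with earlier results of these data known, and Foxo activity was not tested.

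In the Foxj, Foxk and Foxn groups the bright members varied little. Foxk1 and Foxk2, repressors of nutrient-stress genes, differed by -0.01 (SE 0.08) and -0.03 (SE 0.08), Foxn3, a checkpoint factor, by -0.03 (SE 0.08), and Foxj2 and Foxj3 by -0.03 and 0.08. The 95% interval for Foxk1 ran from -0.20 to 0.19. Foxn2 was the exception among them, at 10.56, 10.46 and 10.42 in null and 10.69, 10.63 and 10.90 in the wild-type lungs. The genotypes did not overlap, and the difference was -0.26 (SE 0.10, 95% interval -0.50 to -0.01, limma with Benjamini-Hochberg, adjusted p = 0.878). A second, dim Foxn2 probe set gave -0.69 (SE 0.31) with overlap. Foxn4, which acts in multiciliated cell formation, read 6.86, 6.54 and 6.84 in null and 6.78, 7.06 and 7.04 in wild-type lungs and differed by -0.21 (SE 0.13). Of 15 multiciliated cell genes, Foxn4 included, 13 were lower, with a median of -0.08 and 0 past limma (Benjamini-Hochberg). Without wild-type replicate 2 the median was 0.0074, with 8 higher and 7 lower.

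Group C Sox genes, which support progenitor cells and are high in fetal tissues, had small positive differences in the fit to all 6 lungs. Sox4 read 12.24, 12.12 and 11.98 in null and 11.97, 12.11 and 11.80 in the wild-type lungs, overlapping, with a difference of 0.16 (SE 0.12, 95% interval -0.13 to 0.44). Wild-type replicate 3 was lowest, and without it the difference was 0.07. Of the 8 Sox4 probe sets 7 were higher, up to 0.43, and 1 near background gave -0.01. Sox11 read 12.03, 12.13 and 11.92 against 11.84, 12.24 and 11.94 and differed by 0.02 (SE 0.13), and all 6 of its probe sets were higher, by 0.02 to 0.28. At its brightest probe set the difference turned negative in 3 of the 6 fits that left out 1 lung, down to -0.060. Sox12 differed by 0.11 (SE 0.11), with all 3 probe sets higher, and by 0.023 without wild-type replicate 3. None of these 17 probe sets passed limma (Benjamini-Hochberg), where the smallest adjusted p was 0.878.

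Group D factors Sox5 and Sox6 act with Sox9 in cartilage. Neither had wild-type replicates 2 and 3 as its highest 2 lungs. Sox5 read 8.17 to 8.20 in the 3 Hopx-null lungs and 8.34, 7.92 and 8.37 in the wild-type lungs, a difference of -0.02 (SE 0.13). Sox6 read 6.81, 7.10 and 6.68 in null and 7.05, 6.95 and 6.56 in wild-type lungs, a difference of 0.01 (SE 0.17) with full overlap. Sox9 likewise differed by 0.02 (SE 0.21), at 7.25 to 7.90 in null and 7.22 to 7.81 in wild-type lungs. Sox13, the remaining group D gene, differed by -0.18 (SE 0.12). Sox8, the group E relative of Sox9 and Sox10, read near background at 2.77 to 3.14.

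Group F genes Sox7, Sox17 and Sox18 specify arterial, venous and lymphatic endothelium. Sox17 read 11.80, 11.39 and 11.62 in null and 11.68, 11.78 and 11.92 in the wild-type lungs, with overlap and a difference of -0.19 (SE 0.13, 95% interval -0.50 to 0.12). Leaving out Hopx-null replicate 2 gave -0.080, and leaving out replicate 1 gave -0.29. Its brightest probe set has the suffix x_at, and the other gave -0.03. Sox18 differed by -0.20 (SE 0.19), which was -0.05 without wild-type replicate 3. Sox7 differed by 0.10 (SE 0.16), with wild-type replicate 1 lowest at 9.98 and the other 5 lungs between 10.40 and 10.54. Without that lung it was -0.08. Blood endothelial markers, Sox17 among them, were higher for 10 of 16 with a median of 0.06, and 0 of 16 passed limma (Benjamini-Hochberg). Genotypes did not overlap for 3 of the 16, all higher (18.8%, against 6.21% of all genes), and 0 were wholly lower (against 4.31%). The 6 lymphatic markers had a median of -0.06, which was 0.03 without wild-type replicate 3.

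Over all 27 members above the median level, wild-type replicate 3 held the highest value for 12 and the lowest for 5, and no other lung was highest for more than 6. Hopx-null replicate 3, with the largest 3' bias, was highest for 6 and lowest for 5. These counts were not made over all genes, so no excess among the members can be read from them. Leaving out wild-type replicate 3 brought the differences of Foxf2, Foxp2, Foxn2, Foxo3 and Sox4 to 0.40, 0.10, -0.18, -0.10 and 0.07. The directions of these genes held, but 5 of the 33 named members turned sign in that fit, Sox5 (to 0.054) among them. None of the 33 passed limma (Benjamini-Hochberg) there either.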

How the data were processed

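The authors deposited 1 table of log2 expression values for 6 arrays and 45101 probe sets. The submitters' processing notes list RMA and Partek 6.6 without saying which did what. That the logarithm is to base 2 was read off the values. RMA brings arrays close to the same distribution, and their medians here ran from 6.673 to 6.725. A general rise or fall of transcripts therefore cannot be seen. The 64 control probe sets were dropped, and no filter was set on the other 45037. The platform annotation gave 34945 probe sets 1 gene, 932 several and 9160 none, and 2 of those with several name a Fox or Sox gene and were not used.

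The 2 genotypes were set against each other by lmFit and eBayes of limma 3.58.1 (R 4.3.3) over all probe sets, with Benjamini-Hochberg adjustment and a threshold of 0.05. SE and 95% intervals come from that fit. The procedure was tested on simulated data. The members and the lists (4 of related genes, 10 of markers) were chosen with earlier results of these data known. Named were 24 fixed members and up to 6 per direction with the smallest p among members without overlap, which added only Foxn2. Sox21, Foxa3, Foxj2, Foxj3, Foxn4, Foxq1, Foxl1 and Foxs1 were added after their values were seen. Of each list of related genes the 3 with the largest difference are named. Insr, Txnip, Hdac1, Foxf1 and Sox9 were added. Of the marker lists mainly genes below the lower quartile are named, besides the sex-linked Xist and Eif2s3y. Fabp7, Stmn2, Krt4 and Krt13 are named as examples that went against their list means. The exact two-sided permutation test of 3 against 3 cannot go below 0.1 and was not used. The thymus and T cell list had 8 of 12 genes lower (median -0.08, and 0.04 without Hopx-null replicate 3) and the smooth muscle and pericyte list 8 of 13 (median -0.05, and -0.011 without Hopx-null replicate 3), with 0 past limma in either. Replicates are separate samples per the labels. Deviations of same-numbered lungs from their genotype means had correlations of -0.10, -0.12 and 0.18. Those of differently numbered lungs ran from -0.148 to 0.237. With 3 lungs per genotype, these values cannot settle whether the numbers pair the lungs.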

Additional observations from a re-analysis of the deposited data

How the results depend on the processing

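Under 7 alternatives (quantile normalization again, arrays centred on their medians, only probe sets above the median, trend and robust options, array weights, a replicate block, and the mean of all probe sets of a gene) no Fox or Sox member passed limma. With the replicate block, 1 probe set passed in place of 2. The labels do not say that the numbers pair the lungs, and the block changed no call of a member. Differences near 0 turned sign: Foxd1 to -0.011 with centring and -0.039 with array weights, Foxk1 to 0.0006 with quantile normalization, and Sox6 to -0.0095 with quantile normalization, -0.0087 with centring and -0.0070 with the mean of its probe sets, and Foxq1 to -0.011 with quantile normalization and -0.015 with centring. Leaving out 1 lung at a time, members called ranged from 0 to 1 (Sox21, without wild-type replicate 1) and probe sets called from 1 to 23. Members without overlap ranged from 6 to 14, as fewer lungs overlap less. The share of all genes without overlap is not given for these fits, so these counts give no result about the members. Over the same settings Foxc1 ranged from -0.46 to 0.028, Foxd1 from -0.16 to 0.11, Foxk1 from -0.0375 to 0.018, Foxl1 from -0.19 to 0.0029, Foxq1 from -0.12 to 0.11, Foxo4 from -0.077 to 0.025, Sox11 from -0.060 to 0.14, Sox5 from -0.17 to 0.054, Sox6 from -0.14 to 0.11 and Sox7 from -0.077 to 0.20. The cause was not tested. Of 33 named members 23 kept their sign throughout.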
